A study of Mus musculus with 44 samples.

Results

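Kap, Slco1a1, Odc1, Slc7a13, Acsm3, Gusb and Cndp2 are 7 genes that proximal tubule cells of the mouse kidney are known to express under the influence of androgen. They were followed in 24 kidney libraries of polyadenylated RNA, as 7 of the 24733 genes that had a value above 0 in any library and as 7 of the 12874 genes that entered the tests (mean level of 1 TPM or more; TPM is a relative abundance scaled for transcript length and library size). The 7 genes were chosen by their TPM values in these libraries, with the difference between knockout and wild type in view. That difference is therefore described below with its values and errors, and no p-value is given for it. The libraries came from 129SV mice aged 8 to 12 weeks after birth that were fed only at night. Each library was labelled WT or KO, where KO stands for loss of Bmal1 (gene symbol Arntl), a DNA-binding activator at the core of the circadian clock. The sampling was at zeitgeber times (ZT, hours after lights on) 0, 4, 8, 12, 16 and 20, with 2 libraries, A and B, for each genotype at each time. The labels give no sex, and whether each library came from its own animal is not given in the sources used here.

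Androgens such as testosterone and dihydrotestosterone change transcription of genes that lie near androgen response elements in DNA. In the mouse kidney they act mainly in the proximal tubule, the segment that takes back most of the filtered solutes, and they are known to make male kidneys express a set of secreted proteins, transporters and enzymes at higher levels than female kidneys. The circadian clock is a separate transcriptional loop in which the BMAL1 and CLOCK proteins activate genes through E-box sequences.

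A pair of KO libraries stood apart, and the results on the members are given with and without them. In KO ZT12 replicate A the Y-linked gene Ddx3y was at 0.099 TPM, against 11.7 to 17.5 TPM in the other 23 libraries. The Y-linked genes Eif2s3y and Uty were at 0.288 and 0.655 TPM there, against 25.3 to 38.8 and 5.85 to 7.68 TPM elsewhere. Kdm5d, also Y-linked, was lower but not near 0, at 2.27 TPM against 3.74 to 5.42 TPM. The library labelled KO ZT4 replicate A went against its label in clock genes. Its Cry1 level was 1.03 TPM, below the 11.5 to 16.7 TPM of the 10 other KO libraries (KO ZT12 replicate A set aside), and its Nr1d1 level was 23.8 TPM, above their 1.24 to 3.46 TPM. Over all tested genes, 90.5% of the values of that library lay inside the range of the 12 WT libraries, against 41.4% to 62.7% for the other KO libraries. A WT library compared with the other WT libraries reached 79.2% to 91.2%. Arntl itself swung from 0.295 to 12.9 TPM over the day in WT and stayed between 4.19 and 6.28 TPM in the KO libraries. Which part of Arntl is deleted is not given in the sources used here, so a level summed over its transcripts does not check the labels. The deposited values keep no read depth.

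Promoter sequences are shown for the member with the highest level (Kap), the member with the largest difference between genotypes (Slco1a1) and the only member whose window held a searched motif (Acsm3). Sequences are from RefSeq, build GRCm38.p6, read 5′ to 3′ on the strand of the gene and limited to bases upstream of every annotated exon. Capitals mark a D-box, TTATGTAA, which is bound by the clock output factors DBP, TEF and HLF and by NFIL3.
Kap, chr6:133853763-133853917, minus strand: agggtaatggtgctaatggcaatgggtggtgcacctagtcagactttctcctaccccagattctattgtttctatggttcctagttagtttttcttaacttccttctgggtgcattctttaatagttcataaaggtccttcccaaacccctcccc
Slco1a1, chr6:141946963-141947212, minus strand: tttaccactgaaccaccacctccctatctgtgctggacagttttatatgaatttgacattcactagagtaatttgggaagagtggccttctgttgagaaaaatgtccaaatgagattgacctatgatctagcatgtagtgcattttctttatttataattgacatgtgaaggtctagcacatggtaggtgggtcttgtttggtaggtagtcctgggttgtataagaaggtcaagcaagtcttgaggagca
Acsm3, chr7:119760673-119760922, plus strand: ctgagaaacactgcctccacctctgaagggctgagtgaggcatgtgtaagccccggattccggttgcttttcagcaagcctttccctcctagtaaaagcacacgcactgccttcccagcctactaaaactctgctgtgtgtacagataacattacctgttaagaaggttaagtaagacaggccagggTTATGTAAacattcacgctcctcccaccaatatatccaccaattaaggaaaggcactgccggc
Windows from 250 bases before to 50 bases after the start site were found for 5 of the 7 members, and Slc7a13 and Cndp2 are named only. Each motif was searched on both strands. The D-box was present in 1 of the 5 windows, that of Acsm3, 63 bases upstream of the start site (offset -63), and in 0.938% of all 32851 windows of that length. The full androgen response element, an inverted repeat of AGAACA and TGTTCT with a spacer, was in 0 of 5 member windows and in 0.00913% of all windows. Its shorter part TGTTCT, which every full element also contains on both strands, was in 0 of 5 and in 19.0% of all. The E-box CACGTG was in 0 of 5 and in 7.15% of all. These counts cover only these letters in these windows.

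Kap was the most abundant member and remained among the highest genes of the kidney in both genotypes. It encodes kidney androgen-regulated protein, a small secreted protein of the proximal tubule, and lies on chromosome 6 from 133849851 to 133853762 (GRCm38, minus strand). In the 12 WT libraries it measured 30915 TPM at the lowest, 36389 at the median and 40646 at the highest. In the 10 KO libraries without the pair that stood apart it measured 14822, 20674 and 31169 TPM. These ranges overlapped through KO ZT8 replicate A, which at 31169 TPM lay just above the lowest WT library. KO ZT4 replicate A, at 35748 TPM, lay among the WT libraries and KO ZT12 replicate A, at 10479 TPM, was the lowest of all 24. The mean was 36498 ± 3070 TPM (SD, n = 12) in WT and 21633 ± 5366 TPM (SD, n = 10) in KO. On the log2(TPM + 0.1) scale the KO minus WT change was -0.81 (SE 0.13) over 24 libraries and -0.79 (SE 0.10) without the pair. Kap ranked between 2 and 4 among all genes in each WT library and between 4 and 9 in the 10 KO libraries.

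**Figure D1:**
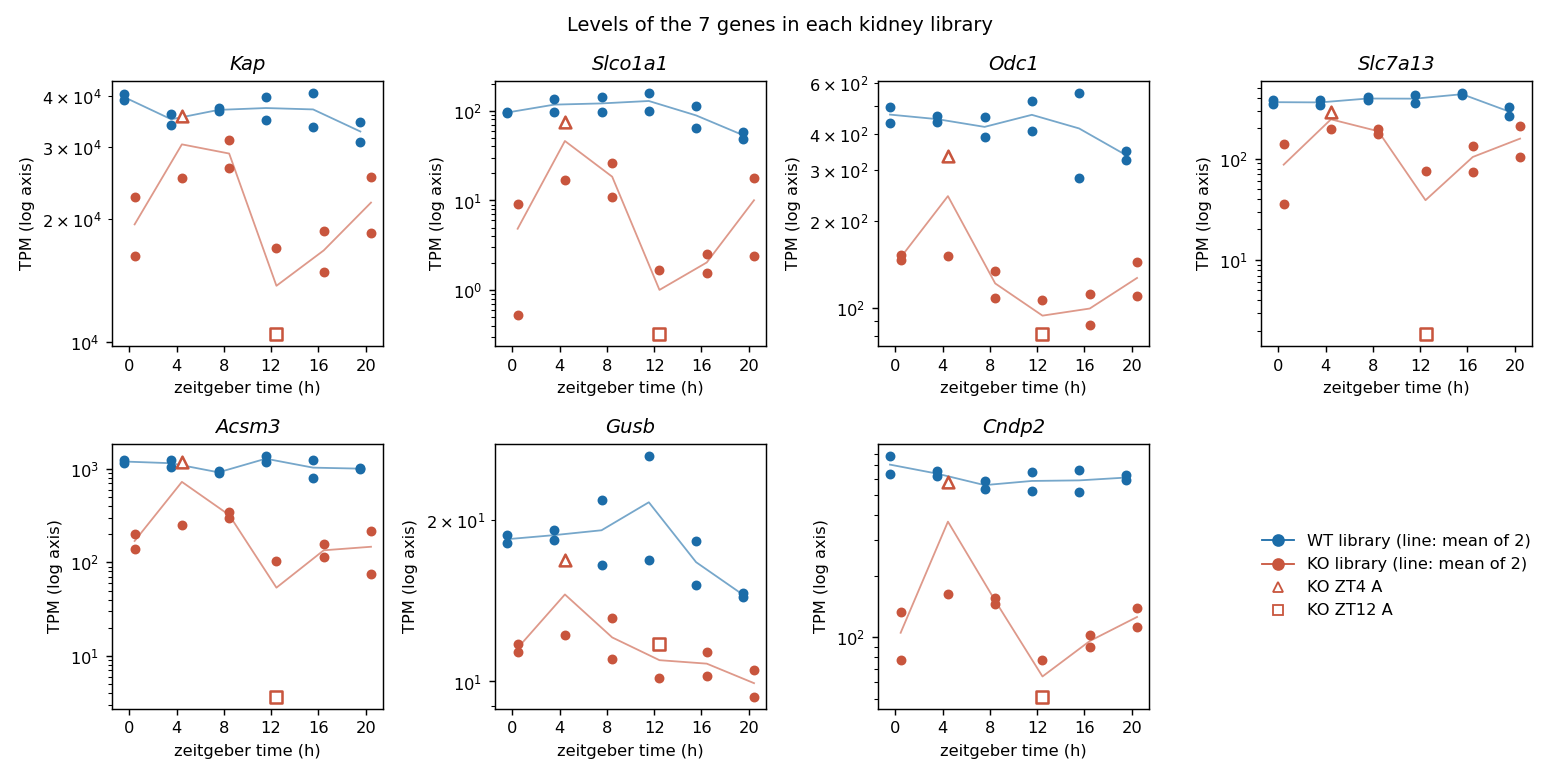
Level of each of the 7 genes in TPM (log axis) by zeitgeber time in hours, with WT and KO libraries as points, lines through the mean of the 2 libraries of each time, and open symbols for the KO ZT4 and KO ZT12 replicates A, which enter the lines. For 6 of the 7 genes every KO library other than KO ZT4 replicate A lies below every WT library, and Kap is the exception.

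The 2 transporters of the set were both lower in KO, and Slco1a1 had the largest change of the 7. Slco1a1 encodes OATP1A1, an organic anion transporting polypeptide of the luminal membrane that carries steroid conjugates and bile acids (chromosome 6, 141907282 to 141946962, minus strand). Its WT libraries measured 48.3 TPM at the lowest, 97.1 at the median and 157 at the highest. The 10 KO libraries measured 0.530, 5.84 and 25.9 TPM, so these groups did not overlap. Of the pair set apart, the ZT4 library was at 75.2 TPM, inside the WT range, and the ZT12 library at 0.326 TPM was the lowest of all. The change was -4.22 (SE 0.61) in log2 units over 24 libraries, an 18.6-fold lower level, and -4.19 (SE 0.52) without the pair. Slco1a1 was also the least even member within KO. At ZT0 its KO replicates A and B measured 0.530 and 9.16 TPM, and at ZT20 they measured 2.42 and 17.7 TPM.

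Slc7a13 encodes AGT1, an acidic amino acid and cystine transporter of the late proximal tubule (chromosome 4, 19818725 to 19842218, plus strand). Its WT libraries ran from 263 TPM through a median of 382 to 447 TPM. The 10 KO libraries ran from 36.1 through 137 to 213 TPM, below every WT library. The ZT4 library of the pair was at 294 TPM and its ZT12 library at 1.85 TPM, the lowest of all 24. Its change depended on these libraries more than that of any other member. It was -2.02 (SE 0.53) over 24 libraries and -1.63 (SE 0.24) without them.

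The 4 enzymes were lower in KO by amounts that ranged from 1.55-fold for Gusb to 7.40-fold for Acsm3 over the 24 libraries. Odc1 encodes ornithine decarboxylase, the rate-limiting enzyme of polyamine synthesis (chromosome 12, 17544794 to 17551505, plus strand). It measured 282, 438 and 554 TPM (lowest, median, highest) in WT and 87.7, 123 and 153 TPM in the 10 KO libraries. These groups did not overlap, with KO ZT4 replicate A at 337 TPM inside the WT range and KO ZT12 replicate A at 81.5 TPM below the rest. The log2 change was -1.69 (SE 0.15) over 24 libraries and -1.74 (SE 0.11) without the pair.

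Acsm3 encodes a medium-chain acyl-CoA synthetase of mitochondria, which activates fatty acids (chromosome 7, 119760923 to 119787513, plus strand). Its WT libraries measured 803, 1104 and 1382 TPM at the lowest, median and highest, and the 10 KO libraries 74.9, 178 and 343 TPM. KO ZT4 replicate A was at 1200 TPM, above the WT median, and KO ZT12 replicate A at 3.66 TPM. The 10 KO libraries were thus all below the WT range, with the pair at opposite ends. The log2 change was -2.89 (SE 0.54) over 24 libraries and -2.65 (SE 0.21) without the pair. Acsm3 lies 6.45 Mb from Arntl on the same chromosome, which no other member shares. The gene overlaps Eri2 on the opposite strand, whose mean was 4.00 TPM over the 24 libraries.

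Gusb encodes beta-glucuronidase, a lysosomal enzyme that removes glucuronic acid (chromosome 5, 129989011 to 130003049, minus strand). It measured 14.3, 18.1 and 26.3 TPM in WT (lowest, median, highest) and 9.37, 11.2 and 13.1 TPM in the 10 KO libraries. The groups did not overlap, but their gap was narrow. KO ZT12 replicate A, at 11.7 TPM, was not low for this gene and lay within the other KO libraries, while KO ZT4 replicate A was at 16.8 TPM. The log2 change was -0.63 (SE 0.08) over 24 libraries and -0.67 (SE 0.07) without the pair.

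Cndp2 encodes a cytosolic dipeptidase that splits cysteinylglycine and other dipeptides (chromosome 18, 84667465 to 84685702, minus strand). It measured 520, 622 and 780 TPM in WT (lowest, median, highest) and 77.3, 123 and 163 TPM in the 10 KO libraries. These groups did not overlap, and their gap was wide beside the spread within either. The pair lay on either side, with KO ZT4 replicate A at 577 TPM and KO ZT12 replicate A at 51.0 TPM. The log2 change was -2.31 (SE 0.22) over 24 libraries and -2.40 (SE 0.12) without the pair.

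**Figure D2:**
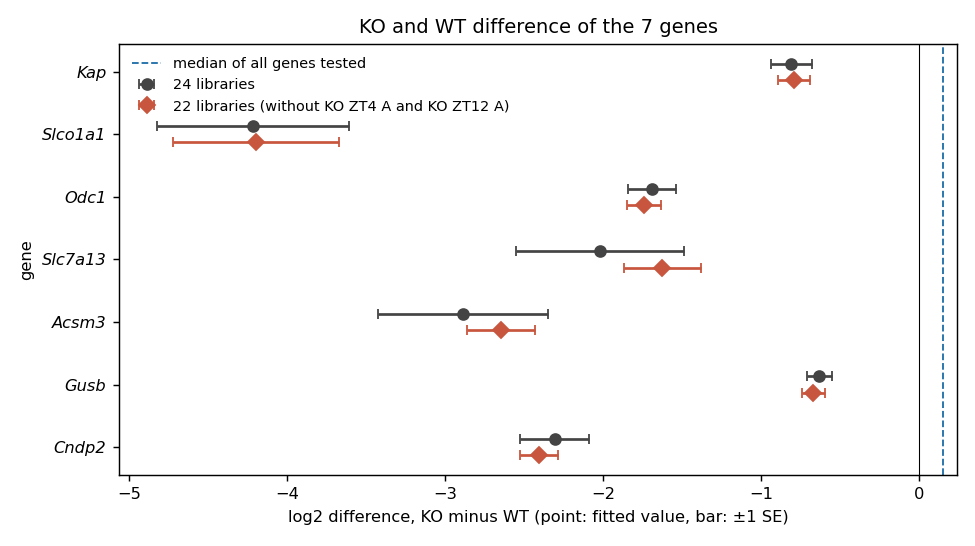
Log2 change (KO minus WT, log2(TPM + 0.1) scale) of each of the 7 genes with its standard error, over the 24 libraries and over the 22 without the KO ZT4 and KO ZT12 replicates A. The changes run from -0.63 for Gusb to -4.22 for Slco1a1 over 24 libraries, and every member lies on the side of lower level in KO in both fits.

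All 7 members passed the genotype test at an adjusted p of 0.05, where 60.9% of the 12874 tested genes passed, 10% lower and 50.9% higher in KO. Without the pair the shares were 61.3%, 10.3% and 50.9%. Nothing is read from these counts, because the members were named with this contrast known. The median change was -2.02 over the members and 0.15 over all tested genes. Rescaling the libraries by the median of ratios moved the median of all genes to 0.00 and that of the members to -2.17. It also moved the calls from 6555 higher and 1289 lower to 2844 higher and 2856 lower. In bulk RNA, fewer proximal tubule cells and less RNA per cell cannot be told apart.

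With all 24 libraries no member was fully separated between genotypes (0 of 7, and 0.249% of tested genes with KO lower). Without KO ZT4 replicate A, 6 of 7 were separated, as were 1.77% of tested genes, and without the pair 6 of 7 and 1.82%. In KO ZT4 replicate A all 7 members were inside the WT range, as were 90.5% of tested genes, and all 7 were above the other 11 KO libraries, as were 6.79%. In KO ZT12 replicate A, 6 of 7 members were the lowest of all 24 libraries, as were 5.99% of tested genes.

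The 7 genes together made up 3.98 ± 0.338% (SD, n = 12) of all TPM in WT libraries and 2.26 ± 0.565% (SD, n = 10) in the KO libraries without the pair, of which Kap alone gave 3.71% and 2.20%. The share was 3.89% in KO ZT4 replicate A and 1.09% in KO ZT12 replicate A. By mean TPM, a scale corrected for length, the order in WT was Kap, Acsm3, Cndp2, Odc1, Slc7a13, Slco1a1, Gusb. The ranges of Cndp2 and Odc1 overlapped there, as did those of Odc1 and Slc7a13, although Cndp2 was above Odc1 in 12 of 12 libraries and Odc1 above Slc7a13 in 11 of 12. In the 10 KO libraries the order was Kap, Acsm3, Slc7a13, Odc1, Cndp2, Gusb, Slco1a1. The neighbours from Acsm3 to Cndp2 overlapped in range, with Slc7a13 above Odc1 in 5 of 10 libraries and Odc1 above Cndp2 in 5 of 10. Slco1a1 thus stood above Gusb in 12 of 12 WT libraries and below it in 7 of 10 KO libraries.

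The members also differed in how evenly they were expressed. The SD of log2 TPM over the 12 WT libraries was 0.12 for Kap, below the median gene at 0.16, and reached 0.52 for Slco1a1, above 93.8% of tested genes. Over the 10 KO libraries the SD was 1.82 for Slco1a1, 0.82 for Slc7a13, 0.71 for Acsm3, 0.41 for Cndp2 and 0.36 for Kap, above 88.3% to 98.5% of tested genes. Odc1 and Gusb were no less even in KO than in WT, at 0.27 against 0.29 for Odc1 and 0.14 against 0.25 for Gusb.

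**Figure D3:**
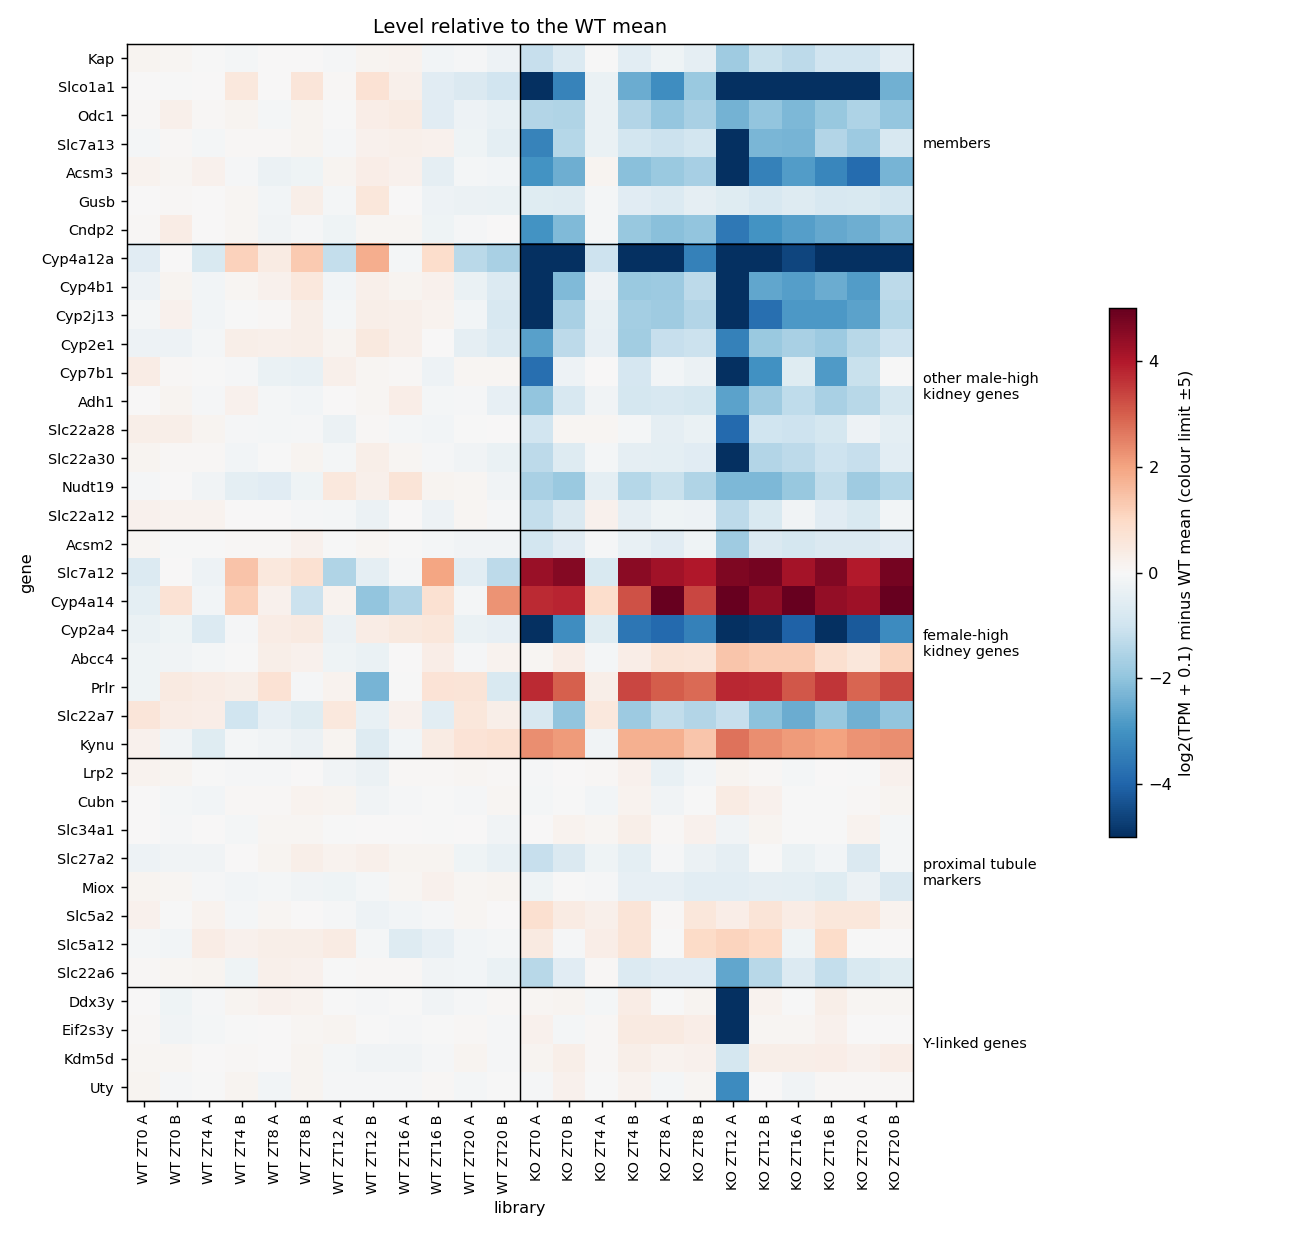
Colour gives log2(TPM + 0.1) minus the mean of the WT libraries, with 1 row for each gene (the 7 members, other genes listed as male-high or female-high in kidney, proximal tubule markers and Y-linked genes) and 1 column for each of the 24 libraries, and with colour limited at 5 in either direction. For the 7 members KO ZT4 replicate A lies inside the WT range in all 7 rows, and KO ZT12 replicate A is the lowest library in 6 of them.

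The time course asked whether the genes cycled over the day, with a 24-h cosine and sine fitted in each genotype by limma. In WT 0 of 7 members passed at an adjusted p of 0.05, and 0 of 7 at an unadjusted p of 0.05, where 13.7% and 29.2% of tested genes passed. Without the pair the WT counts were 0 and 1 of 7, beside 19.9% and 34.9%. The smallest WT value was that of Gusb, with a peak-to-trough difference of 0.38 in log2 units (SE 0.15), a peak at 8.12 h and an adjusted p of 0.214. Slco1a1 had a difference of 1.05 (SE 1.18) in the fit of all libraries, with an adjusted p of 0.799. Both genotypes share 1 spread per gene in that fit, so the WT error of Slco1a1 also holds its larger spread in KO. Fitted on the 12 WT libraries alone its adjusted p from limma was 0.0642. With WT alone 0 of 7 members passed after adjustment and 1 of 7 before it, beside 2843 and 4933 of 12874 tested genes. The WT libraries of Slco1a1 were lowest at ZT20, at 58.2 and 48.3 TPM, and highest in replicate B of ZT12, at 157 TPM, but replicate A of ZT12 was at 99.4 TPM.

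In KO 0 of 7 members passed after adjustment and 5 of 7 at an unadjusted p of 0.05, where 3.64% and 21.1% of tested genes passed. With the 12 KO libraries alone the counts were 0 and 3 of 7, beside 12 and 1694 of 12874 tested genes. In the fit of all libraries Odc1 came nearest, with a peak-to-trough difference of 1.09 (SE 0.26), a peak at 2.46 h and an adjusted p of 0.0519. Kap had 0.88 (SE 0.24), a peak at 3.73 h and an adjusted p of 0.0849. Acsm3 had 3.01 (SE 1.02) with an adjusted p of 0.178 and Slco1a1 3.66 (SE 1.18) with an adjusted p of 0.154. These sizes moved with the pair that stood apart, of which the high library was taken at ZT4 and the low one at ZT12. Without them 0 of 7 passed after adjustment and 3 of 7 before it, beside 4.75% and 22.7% of tested genes. The difference was then 0.65 (SE 0.22) for Odc1, 0.60 (SE 0.19) for Kap, 1.33 (SE 0.36) for Acsm3 and 2.36 (SE 1.07) for Slco1a1, with adjusted p-values of 0.159, 0.137, 0.0793 and 0.334. Among the remaining libraries the KO levels of Kap were highest at ZT8, at 31169 and 26687 TPM, and low at ZT16, at 14822 and 18727 TPM.

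The count in KO changed when single libraries were left out. Without KO ZT0 replicate A, 3 members passed, namely Kap (adjusted p = 0.0226), Cndp2 (0.0217) and Slco1a1 (0.0132), all from limma. In that fit 626 of all 12874 tested genes passed, against 468 in the fit of all libraries. The rhythm did not pass a test of difference between genotypes in any member. The count was 0 of 7 after adjustment and 0 of 7 at an unadjusted p of 0.05, beside 0.629% and 13.7% of tested genes, with adjusted p-values from 0.368 for Odc1 to 0.727 for Gusb. Without the pair it was again 0 and 0 of 7, beside 0.66% and 14.2%. Without KO ZT0 replicate A the count after adjustment was also 0, but 4 of 7 members had an unadjusted p under 0.05, beside 2042 of 12874 tested genes. With time as 6 levels, or without KO ZT16 replicate B, 2 of 7 did, beside 1405 and 1731 of 12874 tested genes. These counts do not show that the rhythms were alike.

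The levels of single transcripts are given as a description. They sum to the gene levels by which the members were chosen, so they give no separate support for a lower level in KO. Kap, Odc1 and Slc7a13 have 1 transcript each. The share over the transcripts of all tested genes was not computed. The 7 genes had 21 deposited transcripts, of which 17 had a WT mean of at least 1 TPM, and all 17 had a lower mean log2 TPM in the 10 KO libraries, by -0.72 to -4.38. Most of the Acsm3 level came from a transcript annotated as a retained intron, which held 64.5% of the gene's TPM in WT and 64.6% in KO. Its 5 coding transcripts summed to 309 TPM in WT and 52.2 TPM in KO. The 2 coding transcripts of Slco1a1 differed by -4.38 and -4.00. For Gusb, the main coding transcript had a change of -0.77, whereas its retained-intron transcripts, both under 1 TPM, had 0.06 and -0.04. How kallisto divides reads between transcripts of a gene can shift such values.

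Within a genotype the members differed in how far they moved together across libraries. Pearson's r of log2 levels was computed for the 21 pairs in each of WT (12 libraries) and KO (10 libraries, without the pair), 42 in all, with permutation p-values adjusted over the 42. The libraries span 6 times of day. In KO, Kap, Slco1a1, Slc7a13, Acsm3 and Cndp2 had r from 0.604 to 0.931 among themselves, and by r all of these pairs passed except Slc7a13 with Acsm3 (r = 0.604, permutation p = 0.0625, adjusted p = 0.119) and Acsm3 with Cndp2 (r = 0.737, permutation p = 0.0187, adjusted p = 0.0523). Slco1a1 and Cndp2 had r = 0.931 (permutation p = 0.00019, adjusted p = 0.00266) and Spearman's rho = 0.855 (permutation p = 0.00269, adjusted p = 0.0170), and r was 0.898 without the 2 libraries farthest from the median of Slco1a1. Odc1 and Gusb stood outside that group in KO, with r from -0.0118 to 0.506 in the pairs that held either of them. Of the 21 KO pairs 8 passed by r and 9 by rho.

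In WT the pattern of pairs was another. The highest value was that of Slco1a1 and Gusb, with r = 0.896 (permutation p = 0.0001, adjusted p = 0.00266), rho = 0.818 (permutation p = 0.00193, adjusted p = 0.0170) and r = 0.863 without the 2 farthest libraries. Slco1a1 and Odc1 had r = 0.817 (permutation p = 0.00111, adjusted p = 0.00777), rho = 0.713 (permutation p = 0.0114, adjusted p = 0.0382) and r = 0.758 without the 2 farthest. Slc7a13 and Cndp2 had r = 0.00485 in WT and 0.909 in KO. Of the 21 WT pairs 6 passed by r and 6 by rho, and without the 2 farthest libraries r ranged from -0.186 to 0.863. Whether a pair's correlation differed between genotypes was not tested. Over all tested genes, WT libraries with the same replicate letter deviated together (correlations of 0.034 to 0.338 over 15 pairs of times), which these permutations do not take into account.

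**Figure D4:**
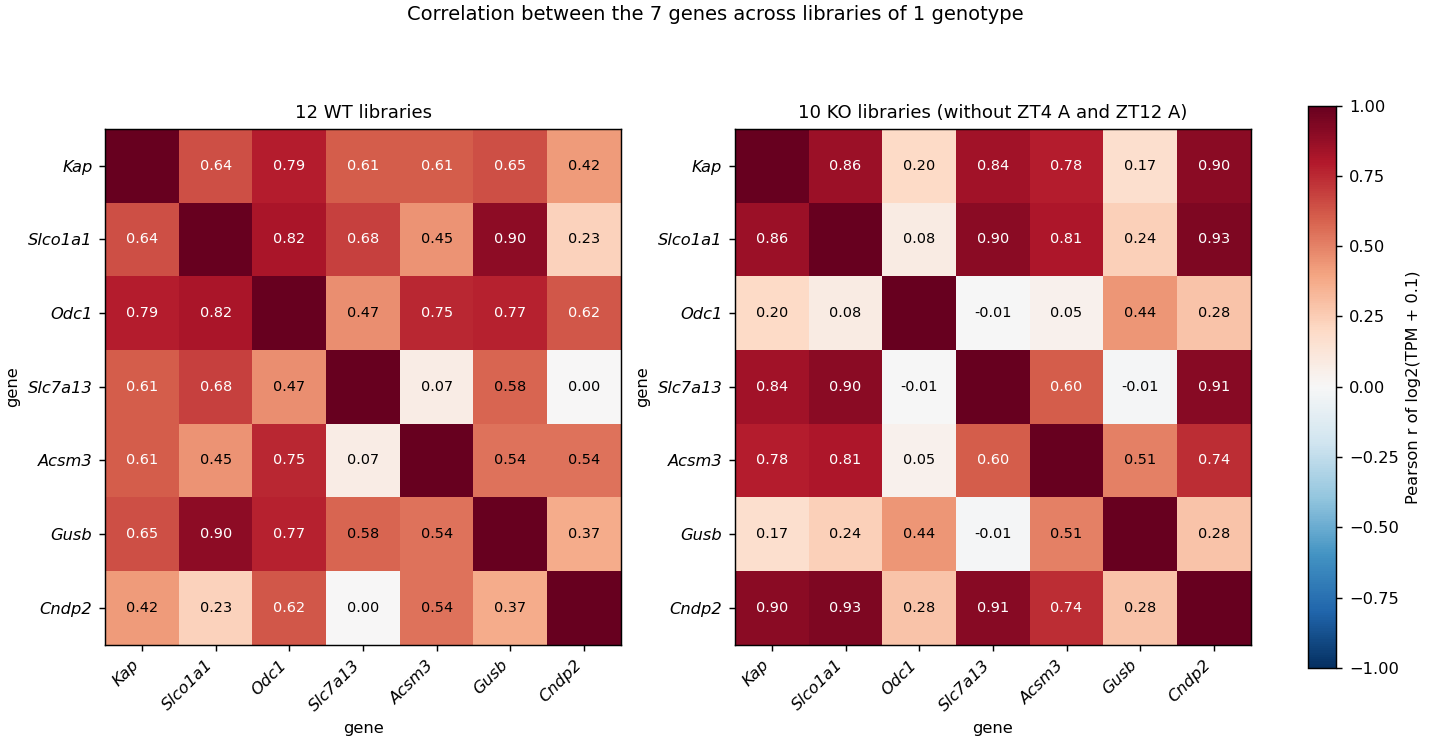
Pearson's r of log2 levels for each pair of the 7 genes, in the 12 WT libraries (left) and in the 10 KO libraries without the ZT4 and ZT12 replicates A (right). In KO the block of Kap, Slco1a1, Slc7a13, Acsm3 and Cndp2 has r from 0.604 to 0.931, and Odc1 and Gusb lie outside it.

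The genes most like the mean z-score of the members over the 24 libraries were Amacr (r = 0.988), Me1 (0.986), Cd36 (0.984), Ggt1 (0.983) and C1qtnf3 (0.981), given as a description. Amacr, a racemase of branched-chain fatty acid and bile acid breakdown, had 97.8 ± 8.47 TPM (SD, n = 12) in WT and 49.9 ± 8.39 TPM (SD, n = 10) in KO. Cd36, a fatty acid transporter, had 136 ± 18.1 TPM (SD, n = 12) and 40.4 ± 9.40 TPM (SD, n = 10). Over the 22 libraries without the pair, Cd36 (0.990), Amacr (0.985), Me1 (0.984), Selenop (0.979) and Ldhd (0.979) led. The difference between genotypes enters these values. For single members over the 24 libraries the nearest gene was Acat1 for Kap (0.981), Pzp for Slco1a1 (0.982), Tmco3 for Odc1 (0.973), Slc22a30 for Slc7a13 (0.981), Acy3 for Acsm3 (0.965), Hsd11b1 for Gusb (0.942) and Cd36 for Cndp2 (0.985). Pzp had 21.99 ± 6.47 TPM (SD, n = 12) in WT and 4.11 ± 3.34 TPM (SD, n = 10) in KO, and 0.0958 TPM in KO ZT12 replicate A.

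Other genes known to be higher in male mouse kidney were lower in KO as a group. All 10 of 10 tested passed as lower and 0 as higher, where 10% of all tested genes were lower, with a median change of -1.54 over 24 libraries and -1.44 without the pair. Cyp4a12a, a fatty acid hydroxylase, changed by -5.16 (SE 0.53), with WT libraries at 58.5 ± 44.7 TPM (SD, n = 12) and KO libraries at 1.22 ± 1.12 TPM (SD, n = 10). Cyp4b1 changed by -2.67 (SE 0.52) and Cyp2j13 by -2.88 (SE 0.59), both cytochrome P450 enzymes. Cyp2e1 changed by -1.62 (SE 0.24), Nudt19, a coenzyme A hydrolase, by -1.57 (SE 0.18) and Cyp7b1, an oxysterol hydroxylase, by -1.51 (SE 0.49). Adh1 changed by -1.26 (SE 0.18), the organic anion transporter Slc22a30 by -1.17 (SE 0.35) and the urate transporter Slc22a12 by -0.53 (SE 0.12). In KO ZT12 replicate A, Cyp4b1 was at 17.5 TPM and Slc22a30 at 2.90 TPM, against 363 ± 197 and 54.6 ± 14.3 TPM (SD, n = 10) in the other KO libraries. KO ZT0 replicate A was nearly as low for Cyp4b1, at 22.8 TPM, and lowest of all for Cyp4a12a, at 0.246 TPM, but was at 40.0 TPM for Slc22a30. In KO ZT4 replicate A they were at 1365 and 92.3 TPM, near the WT means of 1665 and 98.6 TPM.

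Genes listed as higher in female kidney were mixed, with 5 of 8 tested higher in KO and 3 lower, and a median of 1.30. Of all tested genes 50.9% were higher and 10% lower. The labels give no sex, so whether each listed gene is higher in female kidney, in this strain or at all, could not be checked here. The mixed count rests on that listing. Slc7a12, an amino acid transporter, changed by 3.99 (SE 0.55) and had 1.35 to 16.4 TPM in WT and 65.1 to 115 TPM in the 10 KO libraries, ranges that do not overlap, as held for 8.61% of tested genes with KO above WT. Prlr, the prolactin receptor, changed by 3.05 (SE 0.38), with 0.679 to 6.36 TPM in WT and 27.4 to 51.6 TPM in the 10 KO libraries. The lauric acid hydroxylase gene Cyp4a14 changed by 4.22 (SE 0.55) and Kynu, the kynureninase gene, by 1.91 (SE 0.19). Lower in KO were Cyp2a4, a steroid hydroxylase, at -4.08 (SE 0.47), the organic anion transporter Slc22a7 at -1.57 (SE 0.29) and the acyl-CoA synthetase Acsm2 at -0.68 (SE 0.11). Cyp2a4 had 279 ± 81.1 TPM (SD, n = 12) in WT and 17.7 ± 9.46 TPM (SD, n = 10) in KO. It was at 177 TPM in KO ZT4 replicate A, inside the WT range. KO ZT12 replicate A was the lowest of all 24 for Cyp2a4, at 2.82 TPM, and KO ZT0 replicate A was nearly as low, at 2.90 TPM. For Slc7a12 and Prlr KO ZT4 replicate A was at 2.35 and 4.63 TPM, both inside the WT range. KO ZT12 replicate A was at 105 and 52.1 TPM.

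Genes of androgen action and metabolism showed little shared direction. In that list 12 of 13 genes were tested, of which 5 passed as higher and 2 as lower. Of all tested genes 50.9% were higher and 10% lower. The median of the list was 0.15, that of all genes. Under the median-of-ratios scaling 0 passed as higher and 2 as lower. Srd5a2, which converts testosterone to dihydrotestosterone, changed by -1.66 (SE 0.28), from 7.82 ± 6.06 TPM (SD, n = 12) to 1.92 ± 0.590 TPM (SD, n = 10). Fkbp5, a co-chaperone gene that androgens and glucocorticoids induce, was the other gene that passed as lower, at -0.68 (SE 0.17), while its relative Fkbp4 had 0.06 (SE 0.04) without passing. Ncoa4, a coactivator that also carries ferritin to lysosomes, changed by 0.27 (SE 0.07), and by 0.12 without passing under the other scaling. The steroid enzyme genes Hsd3b4 and Hsd17b4 changed by 0.34 (SE 0.15, not passing) and 0.15 (SE 0.04), the latter by 0.00 without passing under the other scaling. Cyp17a1, needed for androgen synthesis, stayed under the floor of the test, with 0.349 TPM at the most.

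Of 11 other genes of polyamine metabolism tested, 4 passed as higher and 1 as lower in KO, with a median of 0.08, where 50.9% of all tested genes were higher and 10% lower. Oaz1, the antizyme that leads ornithine decarboxylase to degradation, changed by 0.29 (SE 0.04), from 483 ± 23.6 TPM (SD, n = 12) to 605 ± 47.0 TPM (SD, n = 10). Arg2, the mitochondrial arginase that makes ornithine, changed by 2.78 (SE 0.30), from 2.60 ± 0.628 to 20.8 ± 5.79 TPM. Sms, spermine synthase, changed by 0.48 (SE 0.09), Paox, a polyamine oxidase, by 0.30 (SE 0.07) and Azin1, an antizyme inhibitor, by -0.24 (SE 0.07). Sat1, which acetylates polyamines for export, had 0.00 (SE 0.06), and Oaz2 had -0.01 (SE 0.05). With the median-of-ratios scaling 3 were higher and 2 lower.

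Among close relatives and partners of the members, 8 of 9 were tested, with 3 higher, 2 lower and a median of 0.02. The shares over all tested genes were 50.9% higher and 10% lower. Slco1a6, a neighbour of Slco1a1 in the same family, changed by -1.07 (SE 0.12), from 146 ± 10.9 TPM (SD, n = 12) to 67.6 ± 14.5 TPM (SD, n = 10), while Slco1a4 was below the floor. Of the acyl-CoA synthetases related to Acsm3, Acsm1 changed by 0.52 (SE 0.08), and Acsm2 is among the genes given above. Slc3a1, a partner subunit of amino acid transporters, changed by 0.05 (SE 0.03) without passing. Slc7a9, a cystine transporter subunit, changed by 0.33 (SE 0.06).

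Markers of the proximal tubule as a whole moved in both directions. Of 8 tested, 2 passed as higher and 3 as lower, where 50.9% of all tested genes were higher and 10% lower. Their median was 0.02, against 0.15 over all tested genes. Summed levels were 5057 to 5828 TPM in WT and 4437 to 5244 TPM in the 10 KO libraries. Slc34a1, the phosphate transporter, had 0.07 (SE 0.05) without passing. The glucose transporter Slc5a2 changed by 0.45 (SE 0.08) and the lactate transporter Slc5a12 by 0.42 (SE 0.14), of which Slc5a12 did not pass under the median-of-ratios scaling. The fatty acid transporter Slc27a2 changed by -0.39 (SE 0.08), Miox by -0.39 (SE 0.07) and the organic anion transporter Slc22a6, itself reported as higher in males, by -0.92 (SE 0.18). With that scaling 1 of the 8 passed as higher and 4 as lower, beside 2844 and 2856 of 12874 tested genes. The median of the 8 was then -0.13, against 0.00 over all tested genes. For the S3 segment, the last part of the tubule, 2 of 3 were higher and 0 lower. In KO ZT12 replicate A the proximal tubule sum was 4348 TPM and in KO ZT4 replicate A 5349 TPM.

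Markers of other cells moved with genotype as well. Thick ascending limb markers passed as higher for 2 of 3 and lower for 1 (Umod), distal convoluted tubule markers as higher for 3 of 3, collecting duct markers for 5 of 5 and podocyte markers for 3 of 3, where 50.9% of all tested genes passed as higher. Summed collecting duct levels ran from 182 to 279 TPM in WT and from 265 to 485 TPM in the 10 KO libraries, and were 229 TPM in KO ZT4 replicate A and 384 TPM in KO ZT12 replicate A. Endothelial markers were higher for 1 of 3. Immune markers were lower for 2 of 3, where 10% of all tested genes passed as lower, and stromal markers passed for 0 of 3. Under the median-of-ratios scaling distal convoluted tubule markers were higher for 2 of 3, immune markers lower for 3 of 3 and stromal markers lower for 1 of 3, and the counts of the thick ascending limb, collecting duct, podocyte and endothelial markers were the same. Of the adrenal markers, 4 of 4 were under the floor, with sums of 0.724 to 1.45 TPM in the WT and the 10 KO libraries and Cyp11b1 and Cyp21a1 near 0. Adipose markers passed for 0 of 2 tested, with sums of 0.119 to 26.7 TPM in WT and 29.5 TPM in KO ZT12 replicate A. Of the clock genes 17 of 18 were tested, with 6 higher and 7 lower in KO, beside 50.9% and 10% of all tested genes. Of the injury markers Lcn2 alone was tested and did not pass (0.59, SE 0.25). Without the pair, the counts of these marker lists and of the gene lists above were the same, except that 6 in place of 5 genes of the androgen list, 3 of 4 Y-linked genes (0 of 4 over 24 libraries) and Lcn2 passed as higher. The part of these markers in the members' differences was not tested.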

How the data were processed

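Polyadenylated RNA from 24 mouse kidney libraries was used. The authors deposited TPM for each transcript and library. The quantifier was kallisto 0.42.4, with builds mm10 and GRCm38 named, per the submitters' processing notes, while the transcript index was not given in the sources used here. Each deposited column summed to between 999999 and 1000001, so depth is unknown and no counting interval was computed.

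Transcripts were summed per gene by Ensembl identifier with GENCODE M21. Of 88198 transcripts 86119 matched, and the other 2079 held 1.35% to 2.24% of TPM. Levels were analysed as log2(TPM + 0.1) with limma 3.58.1 (R 4.3.3, moderated test with trend and robust settings), over genes whose mean reached 1 TPM. Benjamini-Hochberg adjustment ran over all 12874 genes, with a threshold of 0.05. The genotype model had time as 6 levels. Rhythm was tested with a 24-h cosine and sine in each genotype, with 1 spread per gene shared by both genotypes. Fold changes are on the log2(TPM + 0.1) scale, which understates the change of low genes. The fits were tested on simulated data with independent noise, equal spread in both genotypes and no outlying libraries. That simulation does not cover the unequal spread or the pair of KO libraries that stood apart here. Correlations used 100000 permutations.

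The members, the lists and the rules were chosen with earlier results of these data known, so they give no independent support to what is shown. Named genes were all 7 members, the genes of each list with the highest mean level or a log2 change of at least 1, and the genes with the highest correlation with the members. Genes behind a count of 5 or fewer were also named, chosen after their values were seen. Y-linked and clock genes were named to show which libraries stood apart, after their values were seen. Replicate letters A and B are shared by the groups and were not used to pair the libraries, although same-lettered WT libraries deviated together (correlations of 0.034 to 0.338). The labels do not say that libraries of a group came from separate animals, so p-values measure only the spread between these libraries, which may be technical. The 20 chromatin contact (4C-seq) libraries of the series were not analysed here.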

Additional observations from a re-analysis of the deposited data

How the results depend on the processing

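The genotype call of the 7 members was recomputed under 32 alternatives, and the count of members called was 7 in each. All 224 member changes stayed negative and past the threshold. Nothing is read from these counts, because the members were named with this contrast known. Over all genes 7844 of 12874 were called in the reported fit. It was 5700 of 12874 with median-of-ratios scaling and 8823 of 24733 with no floor on low values. The count of members with a rhythm in WT stayed 0 under 33 alternatives, and the count with a difference in rhythm stayed 0 under 32. The count with a rhythm in KO was 0 in the reported fit. It changed to 1 (Odc1, adjusted p = 0.0412) with a floor at a mean of 5 TPM, which tested fewer genes and called 504 of 8904. Leaving out each of the 24 libraries in turn gave 0 to 3 members with a rhythm in KO. Besides KO ZT0 replicate A, the count was 1 without WT ZT16 replicate A, WT ZT16 replicate B or KO ZT16 replicate B (Odc1, adjusted p = 0.0416, 0.0471 and 0.0490) and without KO ZT20 replicate B (Kap, adjusted p = 0.0461). The cause was not tested. Of the 693 rhythm results of single members, 685 stayed on their side of the threshold. The fit of the KO libraries alone, without the ZT4 and ZT12 replicates A, was added after seeing the data and called 0.

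With the replicate letter as a block, 7 members were called between genotypes and 0 for each rhythm test, as without it. That block is 1 letter effect common to both genotypes, so it does not take out an effect held by WT alone. Deviations of same-lettered libraries correlated between -0.323 and 0.338 over 66 pairs of groups, and 21 exceeded 0.1. Within WT 14 of 15 pairs exceeded 0.1 (0.034 to 0.338), and within KO 2 of 15 did. The letters were not used to pair libraries. None of the alternatives takes out a letter effect held by WT alone, so the steady WT rhythm count does not cover it. Over all genes the count of rhythms in WT was 1761 and became 576 with time as 6 levels and 2843 in WT libraries alone. The count in KO was 468 and became 28 and, in KO libraries alone, 12 (11 without the ZT4 and ZT12 replicates A). It was 295 with no floor on low values. The count of rhythm differences was 81, against 43 with no floor and 23 with time as 6 levels. Leaving out 1 library moved it by over 1.5 times without WT ZT4 replicate A (40) or B (37), WT ZT12 replicate B (47), WT ZT16 replicate A (39) or B (53) and KO ZT8 replicate B (50), and it took the KO count to 272 when KO ZT0 replicate B was dropped and to 297 when KO ZT8 replicate B was. TPM keeps no depth, so the low KO values of Slco1a1 have no counting limit.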

Other observations

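After the data were seen, likeness was also computed within genotype, with each genotype's mean removed, over the 22 libraries without the KO ZT4 and KO ZT12 replicates A. The genes most like the mean of the members were then Slc22a30 (r = 0.934), Acat1 (0.912), Cd36 (0.910), Chst7 (0.879) and C1qtnf3 (0.871). Slc22a30, an organic anion transporter, had 98.6 ± 11.2 TPM (SD, n = 12) in WT and 54.6 ± 14.3 TPM (SD, n = 10) in KO. Acat1, the mitochondrial acetoacetyl-CoA thiolase, had 369 ± 25.2 TPM (SD, n = 12) and 278 ± 30.9 TPM (SD, n = 10). Chst7, a sulfotransferase gene on the X chromosome, had 10.6 ± 1.46 TPM (SD, n = 12) and 5.70 ± 1.43 TPM (SD, n = 10), and 0.774 TPM in KO ZT12 replicate A. For single members the nearest gene within genotype was Slc22a30 for Kap (0.926), Pzp for Slco1a1 (0.960), Galnt1 for Odc1 (0.824), Cyp2j13 for Slc7a13 (0.939), Itih2 for Acsm3 (0.892), Srd5a2 for Gusb (0.809) and Me1 for Cndp2 (0.904). These are descriptions over libraries that share time points, with no test.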
